A study of Mus musculus with 3 samples.

Results

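The skeletal genes of the vitamin K pathway were followed across cells of the mouse fracture callus: the 3 osteocalcin genes *Bglap*, *Bglap2* and *Bglap3*, the matrix Gla protein gene *Mgp*, the gene *Ucma* for upper zone of growth plate and cartilage matrix associated protein, and 2 enzyme genes, *Ggcx* and *Vkorc1*. They were taken by symbol from the gene lists of the deposited matrices, which gave all 7 of 32285 genes, each matched once. The study sequenced 3 droplet single-cell RNA libraries, prepared from callus of untreated C57BL/6 mice at day 7, day 10 and day 14 after femoral fracture. Muscle and marrow were cleared away, the callus was digested with collagenase, and live cells without the surface proteins CD31, CD45 and TER119 were sorted. There was 1 library per day, the labels do not say how many animals went into each, and day and library cannot be told apart. Differences between classes and days are therefore given without a test, and every interval is a 95% interval that covers counting error only.

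Gla proteins carry gamma-carboxyglutamic acid, an amino acid made from glutamate after translation, which lets them bind calcium and mineral. The carboxylation is done in the endoplasmic reticulum by the gamma-glutamyl carboxylase encoded by *Ggcx*, which uses reduced vitamin K, and the epoxide reductase encoded by *Vkorc1*, the target of warfarin, regenerates that cofactor. Osteocalcin is the classical late osteoblast product, matrix Gla protein is an inhibitor of soft tissue and cartilage calcification made by chondrocytes and vascular cells, and UCMA is a small secreted protein of cartilage. In the mouse the osteocalcin genes stand in a row on chromosome 3.

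In the GENCODE M21 annotation (GRCm38), the cluster held *Bglap* at chr3:88383501-88384464, *Bglap2* at chr3:88377736-88378699 and *Bglap3* at chr3:88368616-88372743, all on the minus strand and within 15849 bases. *Mgp* lay at chr6:136872435-136875823 on the minus strand, *Ucma* at chr2:4976122-4985748 on the plus strand, *Ggcx* at chr6:72414308-72430712 on the plus strand and *Vkorc1* at chr7:127893063-127895617 on the minus strand. Promoter sequences from RefSeq (GRCm38.p6) were found for 5 of the 7 genes, without *Bglap2* and *Mgp*. The 250 bases before the start sites of *Bglap*, *Bglap3* (the first of 3 start sites) and *Ucma* are shown because these genes marked different cells or stand in 1 cluster at very different levels. Capitals mark the Runx core motif ACCACA and the box motif TATAAA known to position transcription. Each was searched on both strands, and they do not overlap each other.
*Bglap*, chr3:88384467-88384716, minus strand: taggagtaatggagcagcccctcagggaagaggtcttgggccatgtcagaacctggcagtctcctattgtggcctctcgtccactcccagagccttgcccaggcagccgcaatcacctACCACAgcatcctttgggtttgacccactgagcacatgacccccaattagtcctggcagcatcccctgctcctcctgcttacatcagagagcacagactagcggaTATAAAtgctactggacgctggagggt
*Bglap3*, chr3:88372742-88372991, minus strand: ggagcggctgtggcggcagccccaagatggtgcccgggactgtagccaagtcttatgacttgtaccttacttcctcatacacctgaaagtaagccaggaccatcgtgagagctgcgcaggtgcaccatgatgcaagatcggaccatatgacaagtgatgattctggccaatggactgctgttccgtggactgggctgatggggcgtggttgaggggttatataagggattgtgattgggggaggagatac
*Ucma*, chr2:4975872-4976121, plus strand: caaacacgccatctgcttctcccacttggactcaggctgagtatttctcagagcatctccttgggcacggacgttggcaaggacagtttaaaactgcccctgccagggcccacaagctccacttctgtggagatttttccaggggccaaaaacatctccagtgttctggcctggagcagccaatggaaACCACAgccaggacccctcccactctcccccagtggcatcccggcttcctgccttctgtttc

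In these windows the *Bglap* promoter held ACCACA from base -132 to base -127 and TATAAA from base -27 to base -22, counted from the start site. The *Ucma* promoter held ACCACA from base -62 to base -57. Over 32851 promoter windows of the same length, 14.0% held ACCACA and 12.4% held TATAAA on either strand. Neither run of letters stood in the windows of *Bglap3*, *Ggcx* or *Vkorc1*. Only these exact letters were searched, so variants such as the tatataa near the start site in the *Bglap3* window were not counted.

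Cells were kept within the limits that the study's methods state for genes and mitochondrial UMIs (500 to 5000 genes, at most 10% mitochondrial UMIs) and with at most 5% hemoglobin UMIs, which left 7017, 6593 and 9853 cells at day 7, 10 and 14. A UMI is a molecular tag that counts 1 captured transcript. Most day 7 cells carried *Ptprc*, the gene for CD45, in spite of the sort: 447 of 7017 cells had no UMI of it, against 6587 of 6593 at day 10 and 9680 of 9853 at day 14. The median cell had 5056, 17370 and 15802 UMIs in the 3 libraries, which shared 13 to 26 cell barcodes in pairs. Cells without a UMI of *Ptprc* were put in 5 classes by the marker gene furthest above its own threshold: *Aspn* at 2000 UMIs per 1000000 UMIs of the cell (CPM), *Cnmd* at 1500, *Col10a1* at 5000, *Ifitm5* at 500 and *Rgs5* at 1000, with at least 3 UMIs. *Aspn*-high, *Cnmd*-high, *Col10a1*-high, *Ifitm5*-high and *Rgs5*-high cells numbered 1350, 2739, 567, 118 and 75 at day 10 and 3088, 1627, 1527, 359 and 209 at day 14. A further 1738 and 2870 cells passed no threshold, and 305 and 295 passed several.

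The classes were checked against genes that the thresholds did not use. The chondrocyte genes *Col2a1* and *Sox9* were highest in *Cnmd*-high cells, at 45332 and 703 CPM at day 10. *Ihh*, a gene of prehypertrophic and hypertrophic chondrocytes, reached 761 CPM in *Col10a1*-high cells and at most 42.6 CPM in the other classes. The osteoblast genes *Ibsp*, *Sp7* and *Dmp1* were highest in *Ifitm5*-high cells, at 64617, 217 and 151 CPM, and the mural cell genes *Mcam* and *Notch3* in *Rgs5*-high cells, at 374 and 367 CPM. *Postn* and *Ogn* were highest in *Aspn*-high cells, at 4066 and 1520 CPM. *Cspg4*, a further mural gene, did not follow its class: it was at 290 CPM in *Rgs5*-high cells and at 373 CPM in *Cnmd*-high cells at day 10. *Emcn*, an endothelial gene, was at 51.7 CPM in *Rgs5*-high cells and at or under 0.10 CPM in the others at day 10, while no UMI of *Cdh5* was seen in *Rgs5*-high cells, which allows up to 3.04 CPM at day 10 and 1.35 CPM at day 14.

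Summed over a class, fewer cells with a transcript and less of it per cell give the same level, so shares of cells are given beside levels. At day 7 the 5 classes held 13, 56, 8, 6 and 0 cells, so only *Cnmd*-high cells are described as a class there. The day 7 cells that carried *Ptprc* were a background for free RNA of the day 7 library only: 6570 cells, in which 5 neutrophil genes (*S100a8*, *S100a9*, *Ngp*, *Camp* and *Elane*) summed to 280229 CPM. With 6 and 173 cells that carried *Ptprc* at day 10 and day 14, free RNA of those libraries was not estimated. In the day 10 and day 14 classes these 5 genes summed to between 0.470 and 266 CPM. The summed level of 3 macrophage genes (*C1qa*, *Csf1r* and *Adgre1*) was at most 2.26 CPM in those classes.

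**Figure D1:**
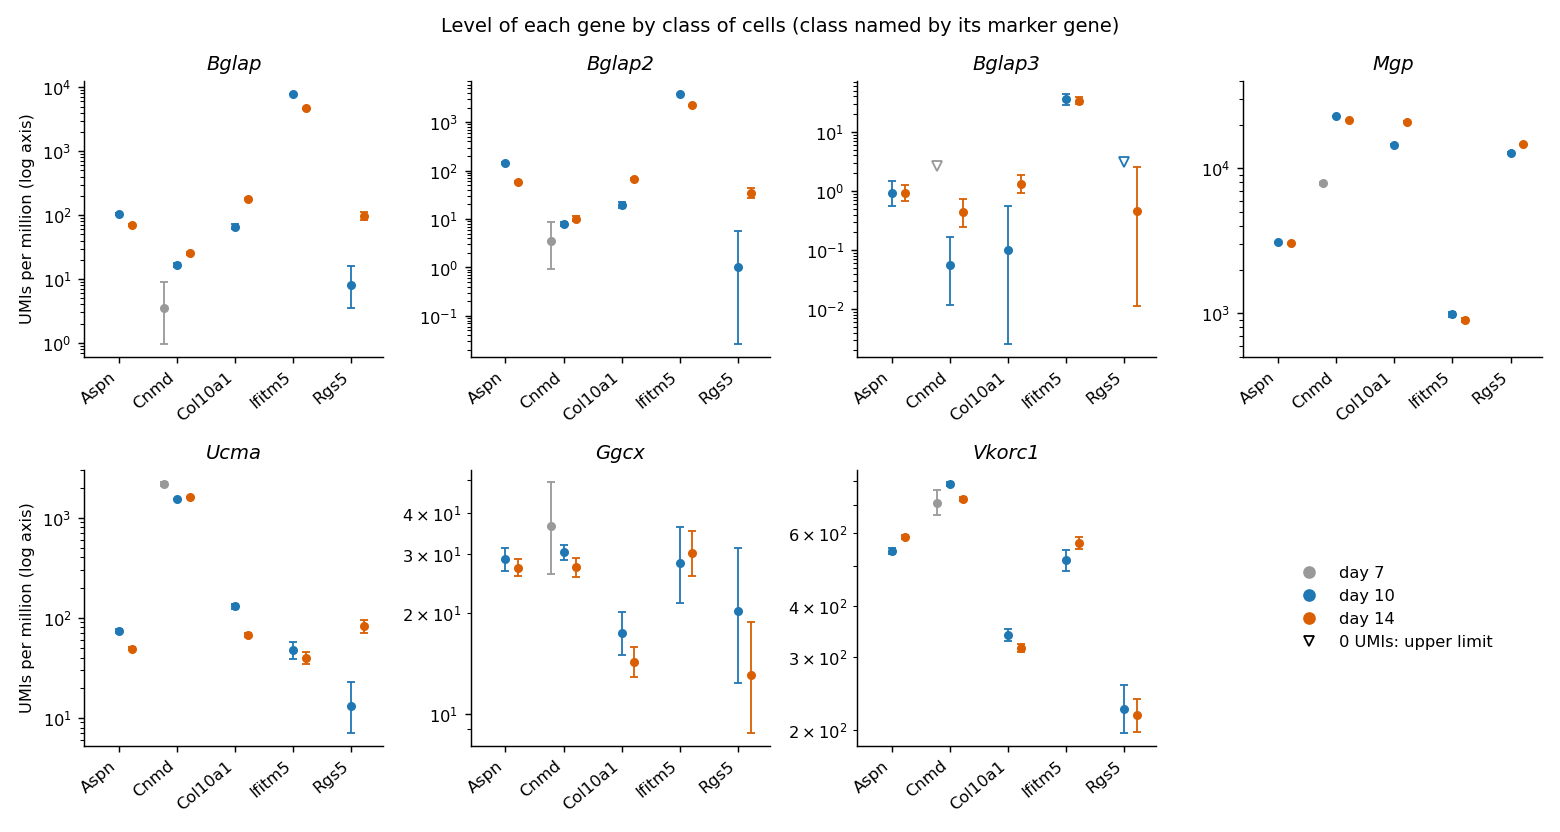
Level of each gene (CPM, log axis) in the 5 classes of cells at day 10 (blue) and day 14 (orange), with *Cnmd*-high cells at day 7 in grey. Bars are exact Poisson intervals for counting error, and an open triangle is the upper limit where no UMI was seen. The osteocalcin genes peak in *Ifitm5*-high cells, *Ucma* in *Cnmd*-high cells, and *Mgp* is between 12715 and 22885 CPM in 3 classes at day 10 and day 14.

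The osteocalcin genes marked the *Ifitm5*-high cells. *Bglap* was at 7845 CPM (interval 7726 to 7965) in these cells at day 10 and at 4660 CPM (4602 to 4718) at day 14. *Aspn*-high cells had 105 and 70.3 CPM, *Col10a1*-high cells 66.3 and 181 CPM, *Cnmd*-high cells 16.6 and 25.2 CPM, and *Rgs5*-high cells 8.12 and 96.5 CPM. On the log2 scale *Bglap* was 7.48 (7.43 to 7.53) above the other 4 classes at day 10 and 5.80 (5.77 to 5.84) above them at day 14. *Bglap2* was at 3819 and 2252 CPM in *Ifitm5*-high cells, a log2 ratio of 6.49 (6.43 to 6.54) and 5.65 (5.61 to 5.70). With cells weighted equally or thinned the day 10 ratios were 6.67 and 6.71 for *Bglap* and 5.53 and 5.63 for *Bglap2*.

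*Bglap3*, of which few UMIs were seen, was highest in the same class. It was at 35.7 CPM (28.1 to 44.7) and 33.99 CPM (29.3 to 39.3) in *Ifitm5*-high cells and at or under 1.31 CPM in every other class. Its log2 ratio was 7.03 at day 10, with 6.28 to 8.33 under the alternatives that moved it most, and 5.30 at day 14. In all, 6 of 14 comparisons in *Ifitm5*-high cells (7 genes, day 10 and day 14) were at least 2-fold higher than in the other classes, namely the osteocalcin genes on both days, against 5.62% and 4.71% of all genes tested on those days. *Bglap3* reached 5 CPM, the least level compared, only through the *Ifitm5*-high side, so the filter fixed the direction of its calls. Those calls add nothing beyond its level. *Mgp* and *Ucma* made up the 4 comparisons that were at least 2-fold lower, against 14.3% and 15% of all genes.

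The *Ifitm5*-high cells were 1.79% of the cells without *Ptprc* at day 10 and 3.71% at day 14, and they held 63.6% and 52.5% of the *Bglap* UMIs. For *Bglap2* the shares were 56.7% and 53.3%, and for *Bglap3* 61.8% and 52.4%. Cells past no threshold held a further 22.3% and 29.1% of the *Bglap* UMIs. The 6 *Ifitm5*-high cells of day 7 had 5362 CPM of *Bglap* and 1964 CPM of *Bglap2*.

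Osteocalcin was far from even within that class. The top 10% of *Ifitm5*-high cells held 97.9% of the *Bglap* UMIs at day 10 and 88.8% at day 14. No UMI of *Bglap* was seen in 55.9% and 48.2% of the cells, whereas the highest cells reached 130953 and 199259 CPM. A single cell held 26.9% of the UMIs of the class at day 10 and 17.2% at day 14, and without it *Bglap* was at 5832 and 3880 CPM. After each cell was thinned to 2000 UMIs, 27.4% (19.5 to 36.4) and 33.3% (28.5 to 38.5) of *Ifitm5*-high cells had a UMI of *Bglap*, against 44.1% and 51.8% without thinning. The shares in *Cnmd*-high cells, which are not known to make osteocalcin, were 1.29% and 2.66% after thinning and 6.75% and 14.1% without it, at median depths of 19116 and 20874 UMIs against 19204 and 15115 in *Ifitm5*-high cells.

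**Figure D2:**
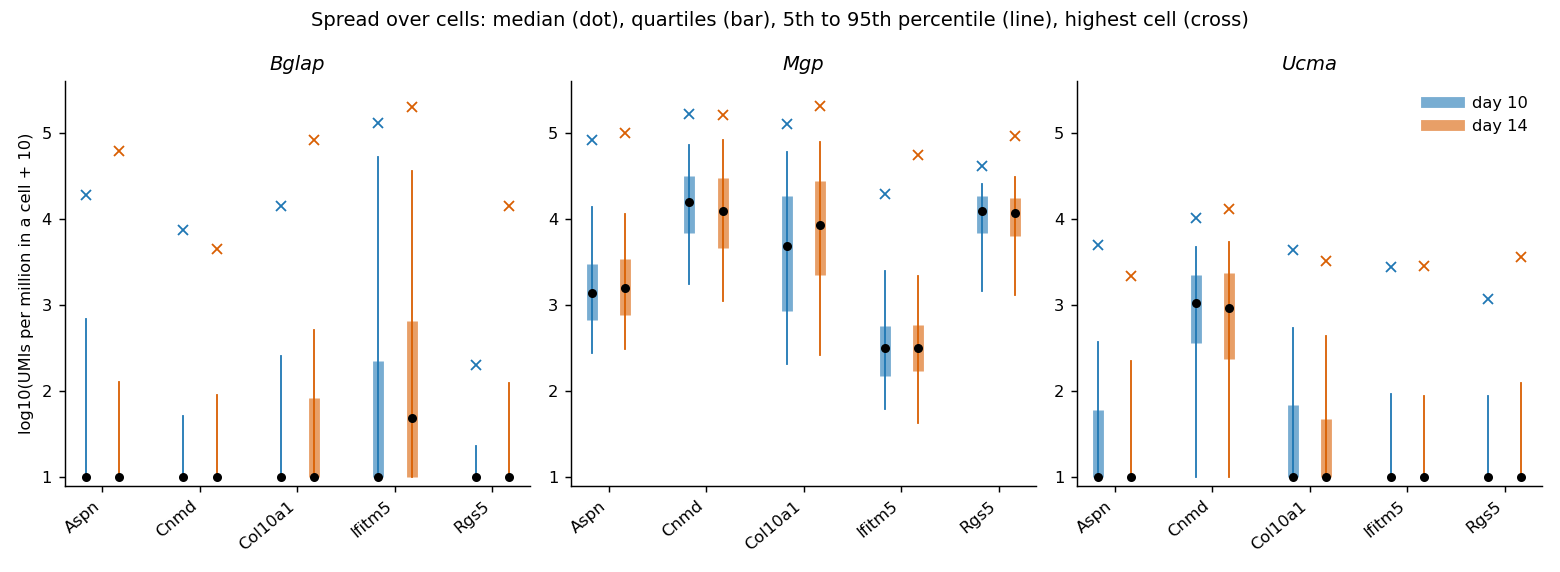
Spread of *Bglap*, *Mgp* and *Ucma* over single cells of each class, as log10 of CPM plus 10, for day 10 (blue) and day 14 (orange). Dots are medians, bars run from the 25th to the 75th percentile, lines from the 5th to the 95th, and crosses are the highest cells. The median of *Bglap* is at 0 in every class except *Ifitm5*-high cells of day 14, while *Mgp* has medians of 4837 CPM or more in *Cnmd*-high, *Col10a1*-high and *Rgs5*-high cells.

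Osteocalcin was higher in cells with more *Ifitm5*, the gene for a membrane protein of mineralizing osteoblasts, up to 2000 CPM of it. Over all cells without *Ptprc*, *Bglap* was at 35.1 and 44.4 CPM in cells with no UMI of *Ifitm5*, at 2095 and 3746 CPM in cells with 100 to 500 CPM of it, and at 7383 and 6767 CPM in cells with 500 to 2000 CPM. In cells with at least 2000 CPM of *Ifitm5* the level was 9825 CPM at day 10 (25 cells) and 1512 CPM at day 14 (137 cells). At day 10, 1 of these 25 cells held 98.8% of their *Bglap* UMIs, and the level without it was 124 CPM. Leaving out the top cell gave 5731 and 5508 CPM in cells with 500 to 2000 CPM of *Ifitm5* and 1206 CPM in the highest group of day 14. In cells with 100 to 500 CPM of *Ifitm5*, 1 cell held 79.7% of the *Bglap* UMIs at day 10. The level in that group without the top cell was 429 CPM at day 10 and 3113 CPM at day 14.

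A split of the *Ifitm5*-high cells by *Bglap* was made after the values were seen and describes 16 and 56 cells with at least 2000 CPM of *Bglap* against 66 and 173 cells with none. The cells with high *Bglap* had less *Ibsp*, the gene for bone sialoprotein, at 13244 against 83750 CPM at day 10 and 24850 against 73465 CPM at day 14. They also had less *Tnfrsf11b*, the gene for osteoprotegerin, at 10.5 against 122 CPM and 7.03 against 105 CPM, and less of the collagenase gene *Mmp13*, at 151 against 763 CPM and 183 against 706 CPM. Among the genes that were higher in them on both days, *Cpz*, a carboxypeptidase gene, was at 376 against 3.38 CPM and 146 against 16.5 CPM, *Car3*, a carbonic anhydrase gene, at 2672 against 76.8 CPM and 655 against 142 CPM, and *Dcn*, the gene for decorin, at 5354 against 934 CPM and 2829 against 938 CPM. *Sp7* differed little, at 183 against 214 CPM and 170 against 150 CPM. The median depth of the cells with high *Bglap* was 18710 against 19729 UMIs at day 10 and 9694 against 15393 UMIs at day 14, and the part of depth in these differences was not tested.

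*Bglap* and *Bglap2* did not keep the same ratio in all classes. *Bglap2* made up 32.7% (32.2 to 33.3) of the UMIs of the pair in *Ifitm5*-high cells at day 10 and 32.6% (32.1 to 33.1) at day 14. In *Aspn*-high cells its share was 58.0% (56.6 to 59.3) and 45.5% (44.2 to 46.8). In *Col10a1*-high cells it was 22.6% (19.8 to 25.5) and 27.0% (26.0 to 28.1).

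The difference stood also between single cells with at least 10 UMIs of the pair. The median share of *Bglap2* was 61.9% in 102 *Aspn*-high cells at day 10 and 59.7% in 66 at day 14, against 34.9% in 27 and 32.7% in 100 *Ifitm5*-high cells. The *Aspn*-high cell with most *Bglap* had a share of 35.2% at day 10 (177 UMIs of *Bglap*) and 33.9% at day 14 (1500 UMIs). Whether the share follows the level of osteocalcin in a cell was not tested. In *Col10a1*-high cells the median was 8.33% in 9 cells and 0% in 59 cells, and 4 and 31 of these cells had no UMI of *Bglap2* at all, against 1 of 27 and 2 of 100 *Ifitm5*-high cells and 0 of 102 and 0 of 66 *Aspn*-high cells. At day 14, 1 *Col10a1*-high cell held 60.4% of the class's *Bglap2* UMIs, and without it the level of *Bglap2* was 26.6 CPM in place of 67.0 CPM. At day 10, 1 cell held 54.1%, and the level without it was 8.89 CPM in place of 19.3 CPM. The reads of the pair are hard to assign. The transcripts are 440 and 471 bases long, and 121 of 211 windows of 90 bases in their last 300 bases are identical, so reads from there can be dropped or split; *Bglap3* shared none of these windows.

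**Figure D3:**
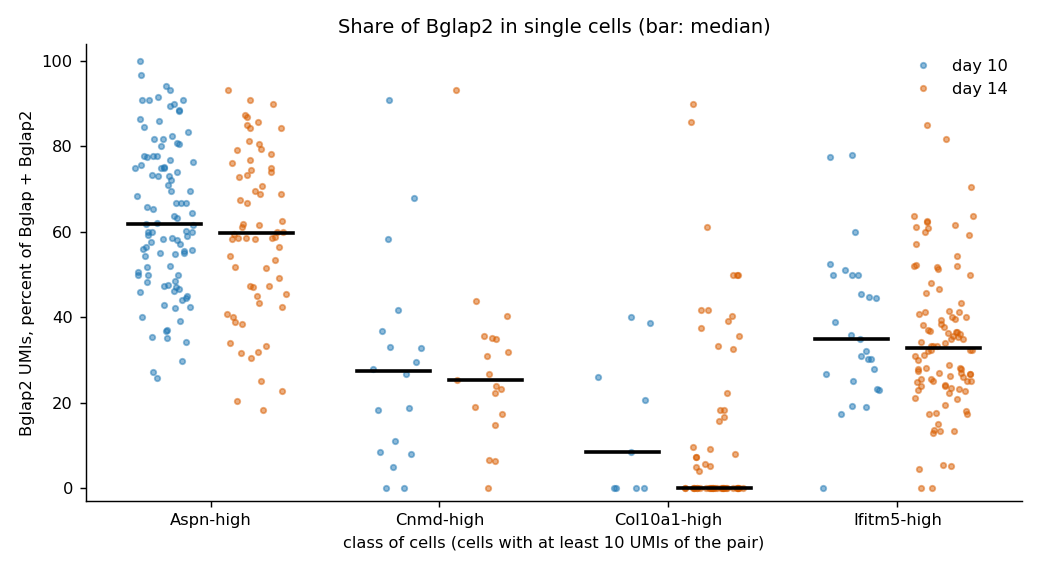
Share of *Bglap2* among the UMIs of *Bglap* and *Bglap2* in single cells with at least 10 UMIs of the pair, by class and day (day 10 blue, day 14 orange). Each point is 1 cell and the black bars are medians. The medians of *Aspn*-high cells sit above those of the other classes, and over 50% of the *Col10a1*-high cells of day 14 lie at 0%.

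*Aspn*-high cells with osteocalcin were a small subset. No UMI of *Bglap2* was seen in 85.8% and 91.3% of *Aspn*-high cells, and its level over the class was 145 CPM (140 to 151) at day 10 and 58.7 CPM (56.5 to 61.03) at day 14. A comparison chosen after the values were seen set the 106 and 67 cells with at least 500 CPM of *Bglap2* against the 1158 and 2819 cells with none. *Ostn*, the gene for the secreted protein osteocrin, led the genes that were higher, at 445 against 4.29 CPM at day 10 and 278 against 1.05 CPM at day 14. *Wnt16*, the gene for a Wnt ligand, was at 253 against 12.1 CPM and 198 against 14.3 CPM, and *Lpl*, the lipoprotein lipase gene, at 479 against 43.8 CPM and 316 against 32.2 CPM. *Postn* was also higher, at 6775 against 3863 CPM and 5837 against 3035 CPM. *Ly6a*, the gene for the progenitor marker SCA1, was lower, at 7.76 against 153 CPM and 19.2 against 230 CPM. The cells with *Bglap2* were shallower, with medians of 10239 against 15507 UMIs and 11409 against 14383 UMIs. In all, 0 of 12 tested comparisons were at least 2-fold higher in *Aspn*-high cells, against 13.5% and 13% of all genes on the 2 days, and 7 were at least 2-fold lower, against 5.5% and 6.22% of all genes. *Bglap* at day 10, with a log2 ratio of -1.40, was 1 of the 7, and it was under 2-fold after thinning (-0.67), with cells weighted equally (-0.64) and with thresholds doubled (-0.65).

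*Mgp*, the inhibitor of cartilage calcification, was high in cartilage and mural cells alike. It was at 22885 CPM (22844 to 22926) in *Cnmd*-high cells at day 10 and at 21591 CPM (21542 to 21641) at day 14. *Col10a1*-high cells had 14551 and 20991 CPM and *Rgs5*-high cells 12715 and 14666 CPM. *Aspn*-high cells had 3094 and 3037 CPM, and *Ifitm5*-high cells were lowest with 985 and 902 CPM. At day 14 *Cnmd*-high and *Col10a1*-high cells differed by only 0.04 (0.04 to 0.05) on the log2 scale. A UMI of *Mgp* was seen in 94.99% to 100% of the cells of each class at day 10 and day 14. After thinning the day 10 shares were between 50.4% in *Ifitm5*-high and 99.0% in *Cnmd*-high cells. In the day 7 cells with *Ptprc* the share was 8.52% (21.2% without thinning, at a median depth of 5045 UMIs), which does not measure free RNA of the day 10 library.

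The *Col10a1*-high cells, which carry the collagen gene of hypertrophic cartilage, moved most. Their *Mgp* level was 0.53 (0.52 to 0.54) higher on the log2 scale at day 14 than at day 10, and their log2 ratio over the other classes went from -0.21 (-0.22 to -0.20) to 0.99 (0.98 to 0.99). Within the class the 5th and 95th percentiles were 197 and 59826 CPM at day 10 and 252 and 77567 CPM at day 14, a wider spread than in *Rgs5*-high cells, where they were 1451 and 25482 CPM and 1301 and 30656 CPM. *Mgp* was higher with more *Col10a1* at day 14, from 9209 CPM in cells without a UMI of *Col10a1* to 23336 CPM in cells with at least 20000 CPM of it. At day 10 it was at 14670 CPM in the former, 6671 CPM in cells with 1000 to 5000 CPM and 16064 CPM in the latter.

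The 25% of *Col10a1*-high cells with most *Mgp* were set against the 25% with least, again after the values were seen (142 and 382 cells at each end). Higher with *Mgp* were *Tnfsf11*, the gene for the osteoclast factor RANKL, at 144 against 20.1 CPM at day 10 and 103 against 16.1 CPM at day 14, *Mmp9*, a gelatinase gene, at 148 against 21.96 CPM and 94.5 against 13.9 CPM, and *Ank*, the gene for a pyrophosphate transporter, at 221 against 43.9 CPM and 308 against 64.1 CPM. *Dmp1*, a gene of mineralizing cells, was at 94.6 against 15.9 CPM and 164 against 38.5 CPM. Lower were *Matn3* and *Hapln1*, genes of the cartilage matrix, at 259 against 1185 CPM and 1041 against 5911 CPM at day 10 and 123 against 828 CPM and 736 against 2870 CPM at day 14. *Ibsp* was lower as well, at 14014 against 45181 CPM and 8978 against 30113 CPM. Median depth was alike at both ends, with 18653 against 18392 UMIs and 17717 against 17128 UMIs.

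In *Cnmd*-high cells the same split (685 and 407 cells at each end) had other leading genes. Cells with least *Mgp* had more *Bnip3* and *Ndufa4l2*, which are known as hypoxia responsive, at 365 and 671 CPM against 39.3 and 123 CPM at day 10 and 307 and 804 CPM against 61.7 and 169 CPM at day 14. They also had more *Lox*, the lysyl oxidase gene, at 320 against 60.5 CPM and 249 against 51.4 CPM. Cells with most *Mgp* had more *Car8*, a carbonic anhydrase related gene, at 279 against 94.1 CPM and 333 against 90.5 CPM, and more *Slc40a1*, the gene for the iron exporter ferroportin, at 167 against 56.6 CPM and 209 against 38.5 CPM.

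*Ucma* marked the *Cnmd*-high cells more tightly than *Mgp* did. It was at 1533 CPM (1523 to 1544) there at day 10 and at 1595 CPM (1582 to 1609) at day 14. The other classes had between 13.2 and 130 CPM at day 10 and between 39.7 and 82.1 CPM at day 14. Its log2 ratio over the other classes was 4.13 (4.08 to 4.19) and 4.84 (4.79 to 4.88), against 1.78 and 1.23 for *Mgp*. In cells past 1 threshold only the day 10 ratio of *Ucma* was 5.08, and the day 14 ratio was 4.24 with no upper limit of genes and 5.56 with thresholds doubled. *Cnmd*-high cells held 92.4% and 85.7% of the *Ucma* UMIs of cells without *Ptprc*, and 75.9% and 41.0% of the *Mgp* UMIs. After thinning, 74.0% (72.3 to 75.6) and 69.5% (67.2 to 71.7) of *Cnmd*-high cells had a UMI of *Ucma*, against 1.71% and 2.24% of *Ifitm5*-high cells; without thinning the shares were 92.5% and 90.6% against 16.1% and 11.1%.

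At day 7 the 56 *Cnmd*-high cells had 2171 CPM of *Ucma* (2087 to 2258) and 7881 CPM of *Mgp* (7720 to 8045). The day 7 level of *Mgp* was the lowest of the 3 days for this class, and that of *Ucma* the highest. The cells with *Ptprc* had 9.80 CPM of *Ucma* and 148 CPM of *Mgp*. In all, 4 of 12 comparisons were at least 2-fold higher in *Cnmd*-high cells, those of *Mgp* and *Ucma* on day 10 and day 14, against 3.39% and 3.43% of all genes tested, and *Bglap* and *Bglap2* made up the 4 that were at least 2-fold lower, against 12.8% and 12.5% of all genes.

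*Ucma* was higher in cells with more *Cnmd*, the gene for chondromodulin, and lowest in cells with most *Col10a1*. It went from 19.7 and 16.8 CPM in cells without a UMI of *Cnmd* to 2149 and 2475 CPM in cells with at least 4000 CPM of it. Along *Col10a1* it was at 801 and 338 CPM in cells without a UMI of that gene, at 872 and 543 CPM in cells with a UMI but under 1000 CPM, and at 97.0 and 44.6 CPM in cells with at least 20000 CPM. The *Cnmd*-high cells with least *Ucma* (the lowest 25%) had more *Ibsp*, at 17497 against 395 CPM at day 10 and 18422 against 742 CPM at day 14, more *Spp1*, the osteopontin gene, at 2894 against 525 CPM and 5761 against 1134 CPM, and more *Alpl*, the alkaline phosphatase gene, at 982 against 161 CPM and 966 against 247 CPM. The highest 25% had more *Matn1*, the matrilin gene of resting and proliferating cartilage, at 428 against 120 CPM and 123 against 29.8 CPM, more *Epyc*, a cartilage proteoglycan gene, at 307 against 89.9 CPM and 211 against 57.3 CPM, and more of the chemokine gene *Cxcl1*, at 271 against 45.3 CPM and 88.5 against 14.2 CPM. This comparison too was chosen after the values were seen.

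**Figure D4:**
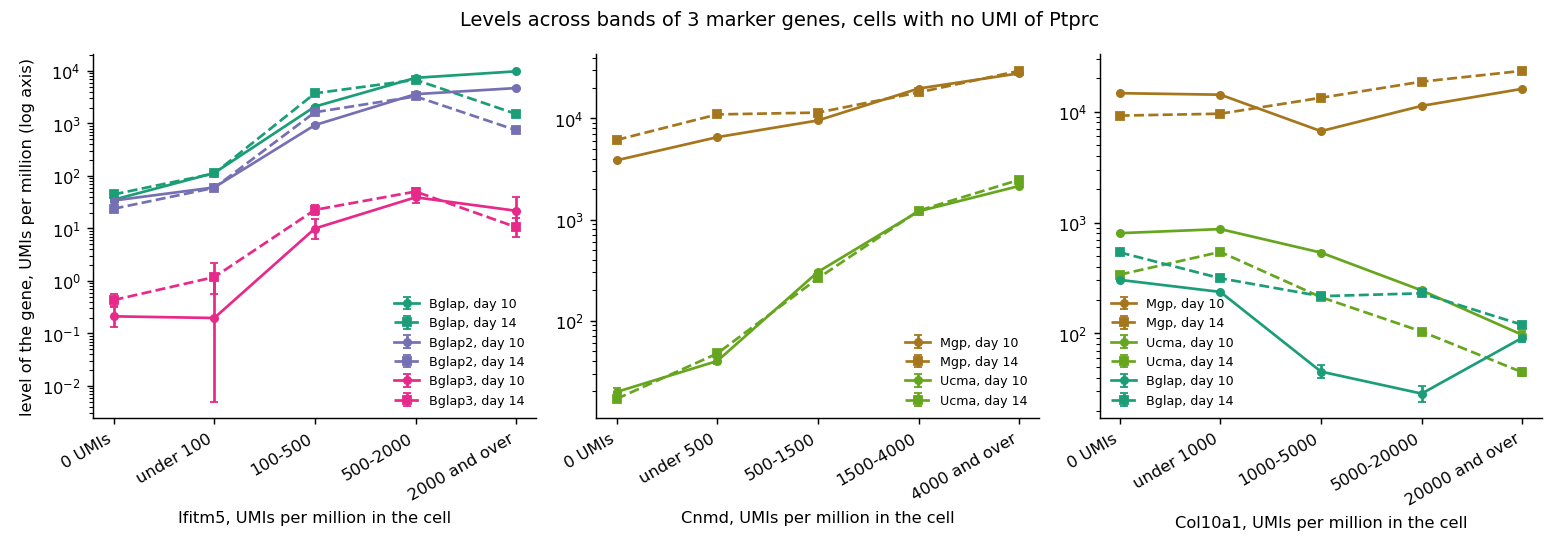
Levels of the osteocalcin genes, *Mgp* and *Ucma* (CPM, log axis, exact Poisson intervals) in cells without *Ptprc*, grouped by the level of *Ifitm5*, *Cnmd* or *Col10a1* in the cell; day 10 has solid lines and day 14 dashed lines. *Ucma* climbs over 100-fold along *Cnmd*, and along *Col10a1* it is higher in the second group than in the first and falls from there. *Bglap* and *Bglap2* climb along *Ifitm5* up to the fourth group, and 98.8% and 97.6% of their UMIs in the last group of day 10 are from 1 cell. In the third group of day 10, 1 cell holds 79.7% of the *Bglap* UMIs and 1 cell 78.3% of the *Bglap2* UMIs.

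Of the 7 genes, none tested was at least 2-fold higher in *Col10a1*-high cells (0 of 12 comparisons, against 7.17% and 6.05% of all genes). *Mgp* at day 14 came close, at 1.98-fold higher. In the same class 6 comparisons were at least 2-fold lower, against 11.2% and 14% of all genes. *Rgs5*-high cells had 0 of 12 higher and 8 lower, against 18.7% and 15.2% of all genes higher and 11.8% and 10.1% lower. As in *Aspn*-high and *Cnmd*-high cells, lower calls of osteocalcin genes were made against a reference in which *Ifitm5*-high cells held most osteocalcin UMIs. The median log2 ratio over all genes tested was 0.29 and 0.27 in *Aspn*-high cells, -0.26 and -0.26 in *Cnmd*-high cells, -0.04 and -0.19 in *Col10a1*-high cells, -0.18 and -0.24 in *Ifitm5*-high cells and 0.24 and 0.21 in *Rgs5*-high cells.

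The 2 enzymes varied less over the classes than the proteins they serve. *Vkorc1* was at 788 and 725 CPM in *Cnmd*-high cells, 543 and 586 CPM in *Aspn*-high cells, 515 and 567 CPM in *Ifitm5*-high cells, 339 and 316 CPM in *Col10a1*-high cells and 225 and 217 CPM in *Rgs5*-high cells. At day 10 the intervals of *Aspn*-high and *Ifitm5*-high cells overlapped (533 to 553 and 485 to 546 CPM), as they did at day 14 (579 to 593 and 547 to 588 CPM). *Vkorc1* was lowest in *Rgs5*-high and *Col10a1*-high cells, which had 12715 to 20991 CPM of *Mgp*. The class with most *Vkorc1*, the *Cnmd*-high cells, also had most *Mgp*, at 22885 and 21591 CPM. The log2 ratio of *Vkorc1* over the other classes at day 10 was -1.06 (-1.11 to -1.01) in *Col10a1*-high cells and -1.57 (-1.77 to -1.38) in *Rgs5*-high cells.

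*Ggcx* was much less captured. It was at 30.4 CPM (28.9 to 31.9), 29.0 CPM (26.7 to 31.4) and 28.2 CPM (21.5 to 36.3) in *Cnmd*-high, *Aspn*-high and *Ifitm5*-high cells at day 10, and at 27.4, 27.4 and 30.3 CPM at day 14. These classes did not differ beyond counting error on either day. *Col10a1*-high cells had 17.4 CPM (14.96 to 20.2) and 14.3 CPM (12.9 to 15.8), and *Rgs5*-high cells 20.3 CPM (12.4 to 31.3) and 13.1 CPM (8.76 to 18.8). After thinning, a UMI of *Ggcx* was seen in 1.37% to 9.40% of the cells of a class at day 10 and 2.43% to 7.28% at day 14. The day 7 cells with *Ptprc* had 1.39 CPM of *Ggcx* and 13.9 CPM of *Vkorc1*. Counts of 3′ tags depend on each transcript, so the levels of the 2 enzymes are not compared with each other.

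In the split by *Bglap*, *Ifitm5*-high cells with at least 2000 CPM of *Bglap* had 35.1 and 28.1 CPM of *Ggcx* against 22.8 and 27.6 CPM in cells with none, and 688 and 636 CPM of *Vkorc1* against 495 and 533 CPM.

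**Figure D5:**
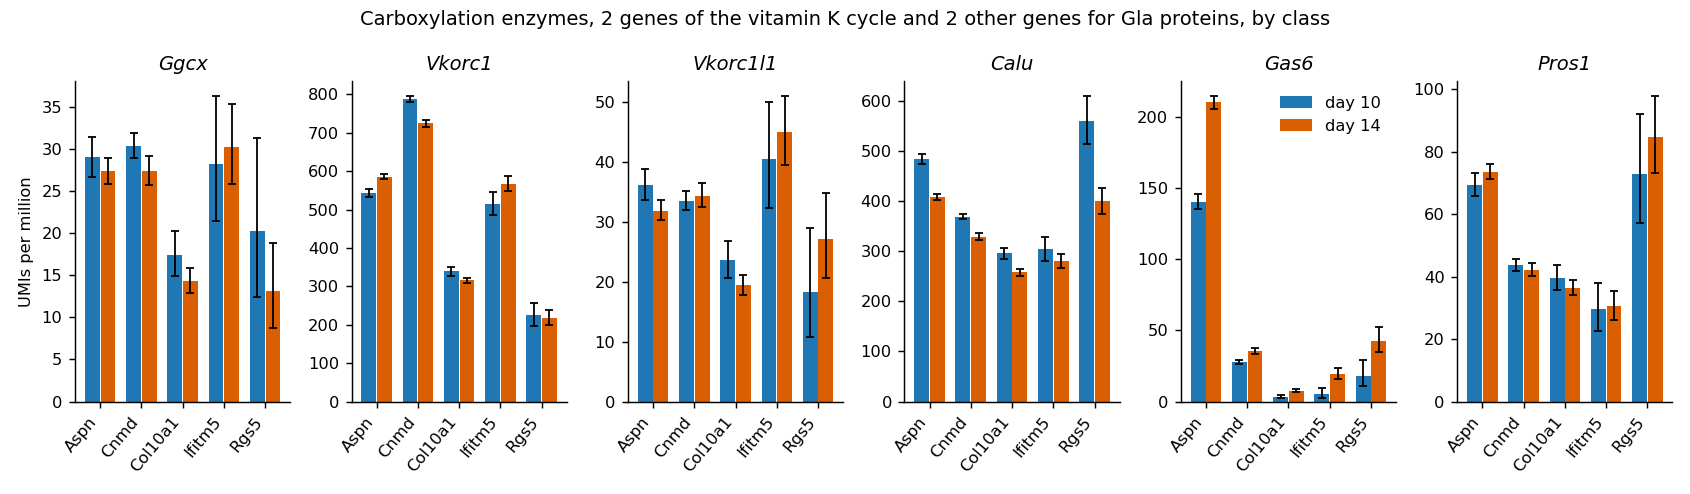
Levels (CPM, axes from 0, exact Poisson intervals) of *Ggcx*, *Vkorc1*, *Vkorc1l1*, *Calu*, *Gas6* and *Pros1* in the 5 classes at day 10 (blue) and day 14 (orange). *Ggcx* and *Vkorc1* are low in *Col10a1*-high and *Rgs5*-high cells, and *Gas6* stands out in *Aspn*-high cells.

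Other genes of the vitamin K cycle were present throughout. *Vkorc1l1*, the gene for a related reductase, was between 18.3 and 44.9 CPM, and *Calu*, the gene for calumenin, a chaperone known to bind the carboxylase, between 258 and 561 CPM. *Nqo1*, a quinone reductase gene, was at 19.0 and 20.1 CPM in *Cnmd*-high cells and at or under 11.4 CPM elsewhere. Of the genes in this list, 1 of 4 tested was at least 2-fold higher and 1 lower in *Cnmd*-high cells on each day, against 3.39% and 3.43% of all genes higher and 12.8% and 12.5% lower. In *Ifitm5*-high cells 1 of 4 was lower and 0 higher, against 14.3% and 15% of all genes lower. In *Col10a1*-high cells 1 of 4 was higher at day 10 and 0 at day 14, against 7.17% and 6.05% of all genes.

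Of 12 other genes for Gla proteins, 4 were tested on each day in *Aspn*-high cells, and *Gas6* and *Prrg1* were at least 2-fold higher, against 13.5% and 13% of all genes tested. *Gas6*, which encodes a ligand of the TAM receptors, was at 141 and 210 CPM in *Aspn*-high cells, a log2 ratio of 2.61 (2.52 to 2.70) and 3.15 (3.08 to 3.23), and between 3.19 and 42.9 CPM elsewhere. *Pros1*, the protein S gene, was at 69.4 and 73.7 CPM in *Aspn*-high cells and at 73.1 and 84.8 CPM in *Rgs5*-high cells, where the receptor gene *Axl* reached 165 and 134 CPM. The coagulation genes *F2*, *F7*, *F9*, *F10*, *Proc* and *Proz*, which the liver is known to express, were at or under 0.45 CPM in every class at day 10 and day 14.

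Among partners and receptors, *Bmp2*, the gene for a ligand that MGP is known to bind, was at 233 and 214 CPM in *Col10a1*-high cells and at or under 72.8 CPM elsewhere. *Bmp4* was at 39.0 and 31.8 CPM in *Ifitm5*-high cells and at or under 1.99 CPM elsewhere. No UMI of *Gprc6a*, a proposed osteocalcin receptor gene, was seen in any class at day 10 or day 14, which allows up to 3.04 CPM in the smallest class, the *Rgs5*-high cells of day 10. Among transcription factor genes known at the osteocalcin promoter, *Sp7* and *Vdr* were each at least 2-fold higher in *Ifitm5*-high cells on both days, as were 5.62% and 4.71% of all genes tested. *Sp7* was at 217 and 169 CPM there and at or under 63.8 CPM in the other classes, a log2 ratio of 2.13 (1.99 to 2.27) and 2.08 (1.98 to 2.19). *Vdr*, the vitamin D receptor gene, was at 44.2 and 35.5 CPM there and at or under 29.3 CPM in the other classes, a log2 ratio of 1.25 (0.93 to 1.55) and 1.31 (1.09 to 1.53). *Runx2* was at 180 and 180 CPM in *Ifitm5*-high cells and higher in *Col10a1*-high cells, at 224 and 200 CPM.

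Between day 10 and day 14, 6 of 31 comparisons within classes were at least 2-fold apart. *Bglap2* in *Aspn*-high cells differed by -1.31 (-1.38 to -1.23) on the log2 scale (day 14 over day 10), 1 of 6 genes tested there, against 1.99% of all genes. In *Col10a1*-high cells *Bglap* was 1.45 (1.33 to 1.57) and *Bglap2* 1.79 (1.58 to 2.01) higher at day 14, 2 of 6 genes against 1.6% of all genes. In *Rgs5*-high cells *Bglap* was 3.57 (2.57 to 4.80), *Bglap2* 5.12 (2.60 to 10.4) and *Ucma* 2.64 (1.83 to 3.57) higher, 3 of 6 genes against 10.1% of all genes. The day 10 side of these ratios was near the floor, with 8 UMIs of *Bglap*, 1 of *Bglap2* and 13 of *Ucma*. None of 6 genes in *Cnmd*-high cells and none of 7 in *Ifitm5*-high cells were 2-fold apart, against 1.55% and 4.62% of all genes, and in the latter the log2 difference was -0.75 (-0.78 to -0.72) for *Bglap* and -0.76 (-0.80 to -0.72) for *Bglap2*.

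Several of these differences rested on few cells. In *Rgs5*-high cells of day 14, 1 cell held 86.0% of the *Bglap* UMIs, 80.8% of those of *Bglap2* and 64.3% of those of *Ucma*, and the levels without the top cell were 13.6, 6.81 and 29.8 CPM in place of 96.5, 35.2 and 82.1 CPM. The thinned share of *Rgs5*-high cells with a UMI of *Bglap* was 2.74% at day 10 and 2.91% at day 14. In *Col10a1*-high cells, 1 cell held 40.6% of the *Bglap* UMIs at day 14, and the level without it was 107.5 CPM, still above the 66.3 CPM of day 10. There the thinned share of cells with *Bglap* went from 6.51% (4.60 to 8.90) to 12.8% (11.1 to 14.6), and without thinning from 23.5% to 36.7%. In *Aspn*-high cells the share with *Bglap2* went from 9.14% (7.66 to 10.8) to 3.29% (2.68 to 3.98) after thinning and from 14.2% to 8.71% without it, and without the top cell the day 14 level was 41.1 CPM. For *Bglap* in the same cells the top cell held 48.7% of the day 14 UMIs, and the level without it was 36.1 CPM in place of 70.3 CPM. For *Ucma* in *Ifitm5*-high cells of day 10 it held 78.2%, and the level without it was 10.5 CPM in place of 47.4 CPM.

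*Col10a1*-high cells with a UMI of *Bglap* (133 of 567 and 560 of 1527 cells) differed from those with none mainly in *Mmp9*, which was at 366 against 33.1 CPM at day 10 and 134 against 24.1 CPM at day 14. *Mmp9* is also an osteoclast gene, and of the other osteoclast genes *Acp5* was at 5.98 and 6.61 CPM and *Ocstamp* at 0.40 and 0.12 CPM in the class; the part of osteoclast RNA was not tested. *Matn4* and *Hapln1*, genes of the cartilage matrix, were lower in cells with *Bglap*, at 89.4 against 265 CPM and 2104 against 3445 CPM at day 10 and at 82.6 against 160 CPM and 1162 against 1912 CPM at day 14. Median depth was 20411 against 17579 UMIs and 17734 against 16404 UMIs.

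The genes most like each of the 7 were sought by Pearson's r over cells without *Ptprc*, on log2 of UMIs per 10000 plus 1, averaged over day 10 (6587 cells) and day 14 (9680 cells). Cells of 1 library share depth and free RNA, so these values are descriptions. *Bglap* was most like *Bglap2* (0.84), and *Col13a1* (0.32), *Ifitm5* (0.31) and *Kazald1* (0.31) were also among the 5 genes most like it. *Bglap3* was like only *Bglap2* (0.61) and *Bglap* (0.58). *Mgp* was most like *Cnmd* (0.51) and the cartilage collagen genes *Col9a3* (0.47), *Col9a1* (0.47), *Col2a1* (0.46) and *Col9a2* (0.46). *Ucma* was most like *Scrg1* (0.74), *Cnmd* (0.73), *Matn3* (0.68), *Col9a1* (0.66) and *Mia* (0.63).

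*Vkorc1* was most like genes of the secretory pathway, *Ppib* (0.52), *Rcn3* (0.51), *Tmed3* (0.51) and *Ssr4* (0.49), and like *C1qtnf3* (0.46). No gene reached 0.3 with *Ggcx*, for which *Serpinh1* was highest at 0.14. *Mgp* and *Ucma* had an r of 0.53 at day 10 and 0.36 at day 14, and *Bglap* had -0.16 and -0.09 with *Mgp* and -0.14 and -0.10 with *Ucma*.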

How the data were processed

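The authors aligned 10x 3′ reads to the mouse genome (mm10 per the labels), collapsed UMIs with Cell Ranger and deposited raw UMI counts per gene and barcode. The labels name release 3.0 and the matrix header 3.1.0, and the methods name a further release and another kit chemistry than the labels. Cells within the limits held 55187609, 113618580 and 154573230 UMIs at the 3 days. From the deposited counts, levels were computed as UMIs summed over a class per 1000000 UMIs of that class (CPM), with exact Poisson intervals. Shares have Clopper-Pearson intervals and ratios exact binomial intervals, all at 95%. Genes with at least 5 CPM on either side were compared. Genes leading a split were ranked by log2 of CPM plus 10 on both days. No doublet caller was run, and the study's limit of 5000 genes was the step against doublets. The genes and lists, which were chosen with earlier results of these data known, were the 7 members, the vitamin K cycle, other Gla proteins, partners and receptors, transcription factors, and up to 5 genes most like each member with a mean r of at least 0.3. *Ptprv*, a list gene, had no match, and some genes of these lists are not reported here. Contrasts were checked on simulated Poisson counts without spread between cells, so the check does not cover genes as uneven over cells as osteocalcin. Python 3.11.15, numpy 2.4.6, scipy 1.17.1 and pandas 2.3.3 were used.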

Additional observations from a re-analysis of the deposited data

Results flagged for a closer look

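Some log2 ratios of a class over the other 4 classes had opposite signs at day 10 and day 14, with counting intervals that exclude 0 on both days. With 1 library per day these differences were not tested. For *Bglap2* in *Aspn*-high cells the ratio went from 0.13 to -1.86, a difference of -1.98. The day 10 ratio was 0.76 after thinning, 0.87 with cells weighted equally and 0.95 with thresholds doubled, and the day 14 ratio with thresholds doubled was -1.17. For *Mgp* in *Col10a1*-high cells it went from -0.21 to 0.99, a difference of 1.20, and in *Rgs5*-high cells from -0.39 to 0.18, a difference of 0.56. For *Vkorc1* in *Aspn*-high cells it went from -0.37 to 0.12, a difference of 0.49. The make-up of the other classes changed with the day: *Cnmd*-high cells were 41.5% of the cells within the limits at day 10 and 16.5% at day 14. *Ifitm5*-high cells, which held 8130 and 12187 UMIs of *Bglap2* against 425 and 347 in *Cnmd*-high cells, were 1.79% and 3.64%. The level of *Bglap2* in *Aspn*-high cells itself moved by -1.31 on the log2 scale and that of *Mgp* in *Col10a1*-high cells by 0.53. The level of *Vkorc1* in *Aspn*-high cells moved by 0.11 and that of *Mgp* in *Rgs5*-high cells by 0.21.

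The 364 day 7 cells with no UMI of *Ptprc* and past no threshold were in no comparison, and all 7 genes were higher in them than in the day 7 cells with *Ptprc*. *Bglap* was at 714 CPM against 33.0 CPM, *Bglap2* at 268 against 10.8 CPM, *Bglap3* at 1.89 against 0.139 CPM and *Mgp* at 3649 against 148 CPM. *Ucma* was at 20.8 against 9.80 CPM, *Ggcx* at 15.8 against 1.39 CPM and *Vkorc1* at 222 against 13.9 CPM. A UMI of *Bglap* was seen in 5.22% of these cells, and *Ibsp* was at 26655 CPM in them. The 5 neutrophil genes summed to 33043 CPM in the same cells, whose median depth was 3398 UMIs, and the part of either in these levels was not tested.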

How the results depend on the processing

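Of 62 log2 ratios of a gene in a class, 39 were at least 2-fold, and their 348 values under the alternatives kept their sign, 345 of them at least 2-fold. The alternatives kept cells above 5000 genes or every barcode, moved the thresholds, took cells past 1 threshold only, did not ask for *Ptprc*, weighted cells equally, thinned them, or, added after the data were seen, left out the top cell of each gene. The count of genes at least 2-fold higher was the same under all alternatives run in *Aspn*-high (0), *Cnmd*-high (4), *Ifitm5*-high (6) and *Rgs5*-high cells (0). In *Col10a1*-high cells it was 0, and 1 under no upper limit, every barcode, thresholds halved, thresholds doubled, cells past 1 threshold, equal weights and thinning, with *Mgp* at day 14 close to the 2-fold line. The count of differences between day 10 and day 14 was 6, 11 with thresholds doubled and 5 to 9 otherwise. *Bglap* in *Aspn*-high cells of day 10 (-1.40) was -0.67 after thinning, -0.64 with equal weights and -0.65 with thresholds doubled; the cause was not tested. *Bglap* in *Rgs5*-high cells of day 14 (-1.69) was -4.84 in cells past 1 threshold only.

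Without thinning, the share of cells with a UMI rose from 27.4% to 44.1% and from 33.3% to 51.8% for *Bglap*, from 28.0% to 45.4% for *Bglap2* (day 14), and from 5.13% to 11.0% and from 4.20% to 13.9% for *Bglap3* in *Ifitm5*-high cells. In *Cnmd*-high cells it went from 99.0% to 99.96% and from 98.1% to 100% for *Mgp* and from 74.0% to 92.5% and from 69.5% to 90.6% for *Ucma*. With Spearman's rho, 3 to 5 of the 5 genes most like each member were shared. Classes of 75 to 209 cells and genes under 5 CPM limit what depth can show, and levels of osteocalcin rest on few cells. No paired analysis was possible because each day has 1 library.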
